A study of Mus musculus with 10 samples.

Results

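The expression of 10 integrin subunit genes was examined in effector memory (EM) γδ T cells sorted from the spleens of mice that had cleared a *Plasmodium chabaudi* infection and of naïve mice. The genes were Itgae, Itgb7, Itgb4, Itga5, Itgb5, Itga4, Itgb1, Itgal, Itgb2 and Itga1. Each was found by matching its Entrez gene ID to the count table, which held 27179 genes. All 10 were present, and all 10 passed the filter on low counts and were among the 12655 genes tested. Itgb4, Itga5 and Itgb5 are named by the study itself as down-regulated and Itgae stands in its table of changed genes, so these genes are not independent of these libraries. The comparison was between 5 pre-exposed and 5 naïve mice, all female C57BL/6, with 1 library per mouse. The pre-exposed mice had been infected intravenously with 50000 *P. chabaudi* infected red blood cells (iRBC) at 6 to 8 weeks of age, whereas the naïve mice were not infected. Starting on day 14, all mice were given chloroquine and pyrimethamine, both at 10 mg/kg, and their spleens were collected 12 weeks after this treatment. EM γδ T cells were sorted as CD3+ γδTCR+ CD62L- CD44+ cells, a gate that can hold several γδ subsets.

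Integrins are heterodimers of an α and a β chain that span the plasma membrane and bind ligands on other cells or in the extracellular matrix. The pairing decides the ligand, so a β chain that is shared by several α chains takes part in several receptors. On T cells, integrins arrest rolling cells on the endothelium, guide them through tissues and hold them at the cell they contact. They are kept in a low affinity state until T cell receptor or chemokine signals reach the talin and kindlin proteins at the tail of the β chain. Spleen γδ T cells fall mainly into cells that make IFNγ and cells that make IL-17.

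Total counts ranged from 8747888 to 22542832 in the pre-exposed libraries (median 13075118) and from 6587199 to 19993444 in the naïve libraries (median 14262979). Levels below are CPM, counts divided by the TMM-scaled library size and multiplied by 1000000, where TMM corrects library sizes for composition. Some libraries stood apart. Immunoglobulin genes took 0.345% to 6.68% of counts in pre-exposed libraries and 0.0845% to 0.737% in naïve libraries. How far a gene lay from its own mean in a library was related to gene length, with a Spearman's rho of -0.54, -0.42 and -0.24 in pre-exposed mice 2, 3 and 4, of -0.14 in pre-exposed mouse 5 and 0.27 in pre-exposed mouse 1, against 0.26 to 0.41 in the naïve mice. Long transcripts were thus read at relatively lower levels in pre-exposed mice 2 to 5, and the 10 integrin genes are long, with a median counted length of 4469.5 bases against 2665 bases over the tested genes. The library of pre-exposed mouse 5 had 24.7% of its counts in its top 10 genes and a TMM factor of 0.680. The sample labels of pre-exposed mice 2 to 4 are also written in another style, without an index pair, and no source used here says whether they formed a batch. The summed level of the 10 γδ T cell markers was 5044 to 15793 CPM in pre-exposed mice and 7538 to 12111 CPM in naïve mice. Some of these markers, such as the CD3 chains, are shared with αβ T cells. Trdc, the constant region of the δ chain, was at 1141 to 3626 CPM in pre-exposed mice and 1826 to 3873 CPM in naïve mice. Its transcripts were thus present in every library. Dendritic cell markers (9 genes, 7 called higher) summed to 125 to 4552 CPM in pre-exposed mice and 38.0 to 227 CPM in naïve mice. Monocyte and macrophage markers (8 genes tested, 5 called higher) summed to 57.4 to 1481 CPM in pre-exposed mice and 42.9 to 169 CPM in naïve mice. The edgeR test behind these calls, described below, called 5.12% of all tested genes higher. In these bulk samples, fewer cells of a type and less RNA per cell cannot be told apart.

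Sequences before the start site are shown for Itga4 and for Itgb1 and Itgb7, the partners of the α4 chain, because Itga4 and Itgb1 were called lower in pre-exposed mice 2 to 4 and Itgb7 was not. RefSeq promoter windows (GRCm38.p6), with 250 bases before and 50 after the start, were matched for 6 of the 10 genes, and Itgae, Itgb4, Itgal and Itgb2 had no entry. Motif letters that were found are in capitals. The windows are Itga4 at chr2:79255176-79255475 (plus strand), Itgb1 at chr8:128685404-128685703 (plus strand) and Itgb7 at chr15:102231886-102232185 (minus strand), all written 5′ to 3′. The Itgb7 window lies inside the annotated gene, which ends at base 102233405.
Itga4: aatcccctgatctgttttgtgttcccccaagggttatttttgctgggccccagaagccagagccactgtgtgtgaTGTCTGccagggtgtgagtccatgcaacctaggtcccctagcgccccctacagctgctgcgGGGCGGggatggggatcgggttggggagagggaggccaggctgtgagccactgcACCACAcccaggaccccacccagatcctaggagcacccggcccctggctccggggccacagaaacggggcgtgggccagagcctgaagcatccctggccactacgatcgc
Itgb1: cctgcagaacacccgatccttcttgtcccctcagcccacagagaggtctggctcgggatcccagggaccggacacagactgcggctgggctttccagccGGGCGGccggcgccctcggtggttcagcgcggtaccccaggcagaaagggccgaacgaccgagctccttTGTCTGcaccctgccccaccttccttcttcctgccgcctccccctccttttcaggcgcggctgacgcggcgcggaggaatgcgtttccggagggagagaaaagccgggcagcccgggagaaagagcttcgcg
Itgb7: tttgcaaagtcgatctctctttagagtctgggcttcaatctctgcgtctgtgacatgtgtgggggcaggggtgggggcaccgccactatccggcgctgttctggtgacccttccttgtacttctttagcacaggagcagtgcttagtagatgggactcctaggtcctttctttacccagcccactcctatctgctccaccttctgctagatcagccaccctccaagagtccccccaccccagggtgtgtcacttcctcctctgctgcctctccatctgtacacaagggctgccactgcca
5 motifs were searched on both strands. The GC box GGGCGG, a site for Sp1-type factors, was found in the windows of Itga4, Itgb1, Itga5 and Itgb5 and is held by 35.9% of the 27025 windows of that length. The SMAD letters CAGACA were found for Itga4 and Itgb1, against 21% of all windows. The RUNX letters TGTGGT were found for Itga4 alone, as their reverse complement, against 16.9% of all windows. The ETS letters CCGGAAG (9.12% of windows) and the TATA letters TATAAA (14.2%) were in none of the 6 windows. The windows of Itgb7 and Itga1 held no letters of the 5 motifs. A match is a description of the sequence and not a bound site.

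Of the 10 integrin genes, 2 were called lower in pre-exposed than in naïve EM γδ T cells and none was called higher. These were Itgae, the αE chain also known as CD103, and Itgb4, the β4 chain. edgeR's quasi-likelihood test with Benjamini-Hochberg adjustment over all tested genes was used, with a threshold of 0.05. Over all 12655 genes this test called 6.30% in either direction and 1.18% lower in pre-exposed mice. The log2 fold change of pre-exposed over naïve mice was negative for 10 of the 10 genes with a median of -0.70, against a median of 0.02 over all tested genes, of which 6159 were negative. At an unadjusted p under 0.05, 3 of the 10 were lower, against 8.74% of all genes. None of the 10 had pre-exposed and naïve values that did not overlap, which 2.17% of all genes had with the pre-exposed mice lower. The test that the study's methods name, voom with TREAT at a fold change of 1.5, was rerun here and called none of the 10 (1 at an unadjusted p under 0.05, Itgae) and 0.0158% of all genes. This rerun depended on settings that the methods do not give: with sample quality weights it called 287 of all genes and again none of the 10 (2 at an unadjusted p under 0.05).

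**Figure D1:**
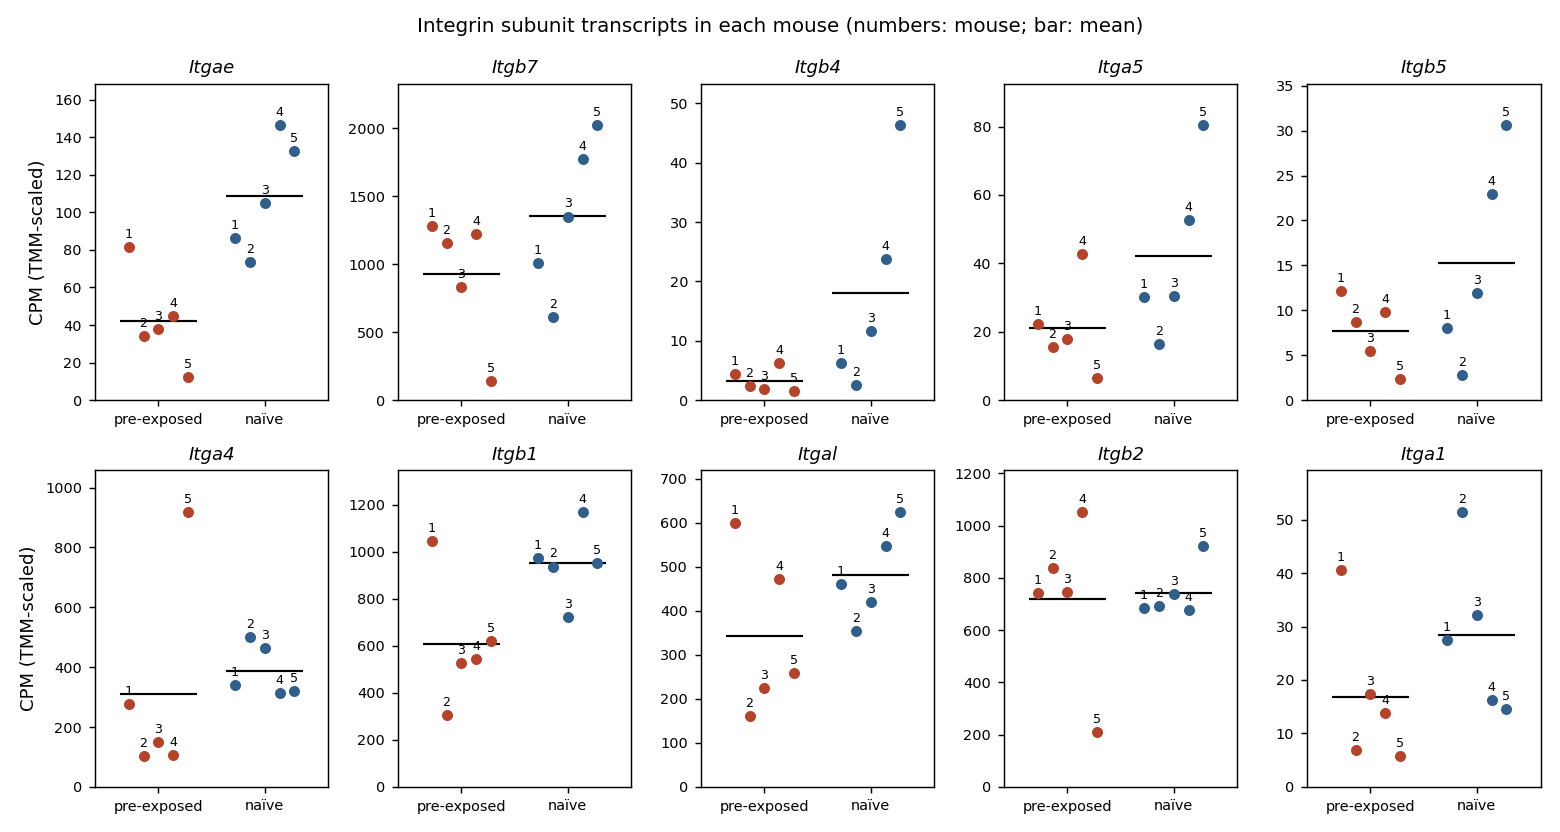
CPM of each integrin gene in the 5 pre-exposed mice (left, red) and the 5 naïve mice (right, blue), 1 point per mouse with its number, on a linear axis from 0 for each gene, and the bar is the group mean. Itgae was at 12.4 to 81.4 CPM in pre-exposed mice and 73.4 to 147 CPM in naïve mice, and pre-exposed mouse 5 lies apart for Itga4, Itgb7 and Itgb2.

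The αE chain pairs only with β7, and αEβ7 binds E-cadherin on epithelial cells and holds T cells within epithelia. Itgae lies at chr11:73090505-73147449 (GRCm38.p6, plus strand) and overlaps the intronless gene Haspin. It was measured at 81.4, 34.2, 38.1, 44.6 and 12.4 CPM in pre-exposed mice 1 to 5, against 86.5, 73.4, 105, 147 and 133 CPM in naïve mice 1 to 5. In words, 4 of the 5 pre-exposed mice lay below every naïve mouse, and pre-exposed mouse 1 lay among the naïve values. The means were 42.1 ± 25.1 CPM in pre-exposed mice and 109 ± 30.7 CPM in naïve mice (SD, n = 5 each), and Itgae fell with an edgeR log2 fold change of -1.36 (SE 0.37, adjusted p = 0.0454). This call was close to the threshold. It was lost when any 1 of 8 libraries was left out (edgeR adjusted p of 0.0700 to 0.131) and held without pre-exposed mouse 1 or 5. With an offset that removes a trend with gene length, described below, the log2 fold change was -1.11 with an edgeR adjusted p of 0.0910. The overlap with Haspin is one of gene spans, and whether the counted exons overlap was not examined. No source used here gives the strand setting, so reads of Haspin in the Itgae count can be neither shown nor excluded.

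The β7 chain pairs with αE and with α4, and α4β7 binds MAdCAM-1 on vessels of the gut. Itgb7 lies at chr15:102215994-102233405 (minus strand). Pre-exposed mice 1 to 5 had 1281, 1159, 834, 1225 and 141 CPM, against 1009, 612, 1351, 1776 and 2025 CPM in naïve mice. The values of 4 pre-exposed mice lay within the naïve range, and only pre-exposed mouse 5 fell outside it, well below. Its log2 fold change was -0.54 (SE 0.46, edgeR adjusted p = 0.490), so αE and β7 transcripts differed in their call, although the difference between them was not tested.

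The β4 chain pairs with α6 and binds laminin, and it is best known from hemidesmosomes of epithelial cells. Itgb4 lies at chr11:115974725-116008412 (plus strand) and overlaps Galk1 and B230344G16Rik. It was low, at 4.47, 2.38, 1.91, 6.18 and 1.45 CPM in pre-exposed mice, against 6.24, 2.53, 11.6, 23.7 and 46.4 CPM in naïve mice. The lowest naïve mouse, number 2, lay among the pre-exposed values, while naïve mice 4 and 5 lay far above them. Itgb4 fell with a log2 fold change of -2.37 (SE 0.67, edgeR adjusted p = 0.0481), and its mean was 3.28 ± 1.99 CPM in pre-exposed mice and 18.1 ± 17.7 CPM in naïve mice (SD, n = 5 each). The counts behind these levels were 8 to 89 reads per pre-exposed library and 49 to 321 per naïve library. Without naïve mouse 5 the log2 fold change was -1.67 with an edgeR adjusted p of 0.129, and leaving out any of 6 other libraries also ended the call (up to 0.136), which held without pre-exposed mouse 1 or 5 or naïve mouse 2.

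Itga5 and Itgb5, the α5 and β5 chains, were at lower levels in the same libraries. The α5 chain forms with β1 the main fibronectin receptor, and β5 pairs with αv and binds vitronectin. Itga5 (chr15:103344286-103366791, minus strand, with Mir6963 inside it) was at 22.3, 15.4, 17.8, 42.7 and 6.54 CPM in pre-exposed mice, against 30.02, 16.4, 30.5, 52.8 and 80.5 CPM in naïve mice. Pre-exposed mice 2 and 5 lay below every naïve mouse, and the others overlapped with the naïve values. Its log2 fold change was -0.97 (SE 0.46, edgeR adjusted p = 0.208). Itgb5 (chr16:33829665-33949338, plus strand) was at 12.2, 8.71, 5.41, 9.78 and 2.36 CPM in pre-exposed mice, against 7.9995, 2.84, 11.9, 22.9 and 30.6 CPM in naïve mice. The groups overlapped over most of their range, and naïve mice 4 and 5 were again highest. Itgb5 had a log2 fold change of -0.91 (SE 0.54, edgeR adjusted p = 0.317).

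The α4 chain pairs with β1 to form VLA-4, which binds VCAM-1 and fibronectin, and with β7. Itga4 lies at chr2:79255426-79333114 (plus strand) and overlaps Cerkl. It was at 277, 103, 150.4, 107 and 920 CPM in pre-exposed mice, against 340.1, 500.1, 463, 312 and 319 CPM in naïve mice. Pre-exposed mice 1 to 4 lay below every naïve mouse and pre-exposed mouse 5 lay above every one, so that the log2 fold change was -0.32 (SE 0.51, edgeR adjusted p = 0.743). Without pre-exposed mouse 5 it was -1.29 with an edgeR adjusted p of 0.0150. Pre-exposed mouse 5 thus decided this value, and it was the mouse with the lowest Itgae, Itgb7 and Itgb2.

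The β1 chain pairs with α4, α5, α1 and many others, and is the most widely shared β chain. Itgb1 (chr8:128685654-128733579, plus strand) was at 1045, 307, 528, 546 and 619.7 CPM in pre-exposed mice, against 973, 938, 721, 1172 and 952 CPM in naïve mice. Pre-exposed mice 2 to 5 lay below every naïve mouse, and pre-exposed mouse 1 lay among them. With a log2 fold change of -0.64 (SE 0.29, edgeR adjusted p = 0.181) Itgb1 did not pass the test, and without pre-exposed mouse 1 the value was -0.93 with an edgeR adjusted p of 0.0285.

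The α1 chain pairs with β1 and binds collagen, and it marks T cells that stay in tissues. Itga1 (chr13:114958079-115101964, minus strand) holds the gene Pelo within it. It was at 40.5, 6.81, 17.35, 13.9 and 5.81 CPM in pre-exposed mice, against 27.5, 51.5, 32.2, 16.3 and 14.6 CPM in naïve mice. Pre-exposed mice 2, 4 and 5 lay below the naïve range. As for Itga4, naïve mice 4 and 5 were the lowest of the naïve mice. The log2 fold change was -0.76 (SE 0.49, edgeR adjusted p = 0.353).

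LFA-1, the αLβ2 integrin, binds ICAM-1 and is the main adhesion receptor of lymphocytes. Itgal (chr7:127296139-127335137, plus strand) was at 599, 161, 224, 473 and 257 CPM in pre-exposed mice, against 459.6, 355, 419, 546 and 625 CPM in naïve mice. Pre-exposed mice 2, 3 and 5 lay below the naïve range, and the log2 fold change was -0.49 (SE 0.33, edgeR adjusted p = 0.381). Itgb2 (chr10:77530329-77565708, plus strand), whose chain also pairs with the myeloid αM and αX, was at 742, 839, 745, 1054 and 212 CPM in pre-exposed mice, against 686, 694, 737, 676 and 920.3 CPM in naïve mice. The groups lay close together apart from pre-exposed mouse 5, and the log2 fold change was -0.05 (SE 0.32, edgeR adjusted p = 0.946). Without pre-exposed mouse 5, or without naïve mouse 5, this small difference changed sign (0.15 and 0.04).

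Pre-exposed mouse 5 differed from the other pre-exposed mice in its set of integrins. Relative to the naïve mean, its log2 deviation was -3.14 for Itgae, -3.26 for Itgb7, -3.64 for Itgb4 and -1.81 for Itgb2, but 1.25 for Itga4 and -0.62 for Itgb1. The median deviation over the 10 genes was -0.20, -1.60, -1.17, -0.72 and -2.49 in pre-exposed mice 1 to 5, against -0.26, -0.50, -0.13, 0.31 and 0.34 in naïve mice 1 to 5. Pre-exposed mouse 1 lay among the naïve mice, and the other pre-exposed mice lay below them.

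**Figure D2:**
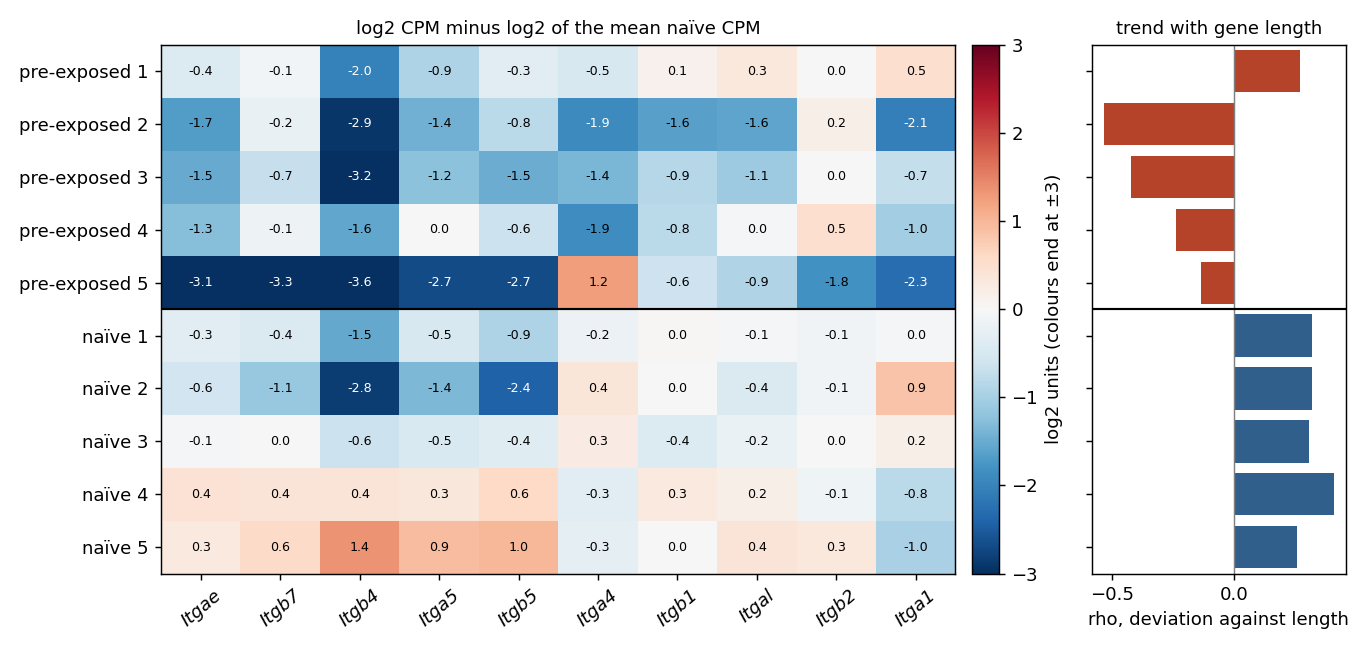
Left, log2 CPM of each integrin gene minus log2 of its mean CPM over the naïve mice, with pre-exposed mice above and naïve mice below the line (blue, below the naïve mean, and red, above it, in log2 units). Right, Spearman's rho of each library's deviations with gene length over the tested genes, which was below 0 in pre-exposed mice 2 to 5 and above 0 in pre-exposed mouse 1 and in the naïve mice.

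The style of the labels divided the pre-exposed mice into mice 2 to 4 and mice 1 and 5, and each part was set against all naïve mice. The trend with gene length did not give the same division, since it was negative in mouse 5 as well. For pre-exposed mice 2 to 4, edgeR called 5 of the 10 genes lower and none higher, and this fit called 14.9% of all genes lower. Itga4 had a log2 fold change of -1.74 (SE 0.24, adjusted p = 0.000221), Itgae of -1.53 (SE 0.25, adjusted p = 0.000659) and Itgb1 of -1.11 (SE 0.23, adjusted p = 0.00296) in this edgeR fit. Itga1 (-1.30, adjusted p = 0.0242) and Itgal (-0.83, adjusted p = 0.0451) were also called lower. Itgb4 had a similar value to that in all mice (-2.29, edgeR adjusted p = 0.0507), and Itgb2 had the opposite sign (0.18, edgeR adjusted p = 0.4995). For pre-exposed mice 1 and 5, edgeR called none of the 10 (1 at an unadjusted p under 0.05) and 0.182% of all genes, and Itga4 was higher by a log2 value of 0.69 (edgeR adjusted p = 0.437). These mice gave -1.14 for Itgae, -2.38 for Itgb4 and -1.43 for Itga5, each without passing the test (edgeR adjusted p of 0.308 to 0.3598), and -0.14 for Itgb1. With an offset that removes the trend with length, edgeR called none of the 10 (2 at an unadjusted p under 0.05), against 0.308% of all genes called lower, and the median log2 fold change of the 10 was -0.55. Itgb4 then had a log2 fold change of -2.003 (SE 0.66, edgeR adjusted p = 0.141), against -2.37 without the offset. The part of the length trend in the lower integrin levels beyond this was not tested.

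**Figure D3:**
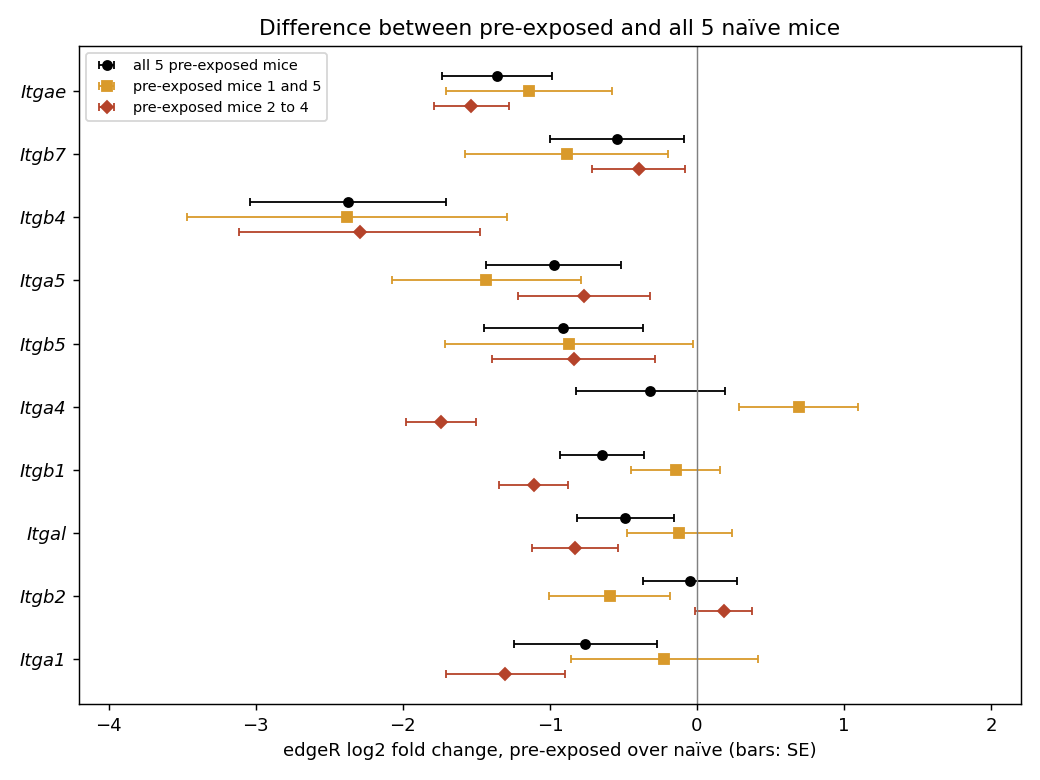
edgeR log2 fold change (x axis, log2 units) with its SE for each integrin gene, for all pre-exposed mice (black circles), pre-exposed mice 1 and 5 (orange squares) and pre-exposed mice 2 to 4 (red diamonds), each over all naïve mice. All genes but Itga4 and Itgb2 lie left of 0 in all of these. Itga4 is at 0.69 for mice 1 and 5 and -1.74 for mice 2 to 4.

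To compare levels between genes, CPM was divided by the counted length in kilobases. Itgb7 was highest, at 347 ± 177 CPM per kb in pre-exposed mice and 507 ± 213 CPM per kb in naïve mice (SD, n = 5 each). Its naïve level was above that of 99.1% of the tested genes. Itgb2 followed at 251 ± 108 CPM per kb in pre-exposed mice and 259 ± 35.7 in naïve mice, then Itgb1 at 145 ± 64.4 CPM per kb in pre-exposed mice and 227 ± 38.1 in naïve mice. Below these shared β chains came Itgal at 65.6 CPM per kb in pre-exposed mice and 92.0 in naïve mice, and Itga4 at 31.7 ± 35.3 CPM per kb in pre-exposed mice and 39.3 ± 8.94 in naïve mice. The pre-exposed mean of Itga4 rested on pre-exposed mouse 5, without which it was 16.2 ± 8.28 CPM per kb. Itgae had 9.22 CPM per kb in pre-exposed mice and 23.8 in naïve mice. Itga5 had 4.796 CPM per kb in pre-exposed mice and 9.63 in naïve mice, and Itga1 had 2.82 in pre-exposed mice and 4.75 in naïve mice. The lowest were Itgb5, with 2.34 CPM per kb in pre-exposed mice and 4.65 in naïve mice, and Itgb4, with 0.531 in pre-exposed mice and 2.94 in naïve mice. The order of the 10 means was the same in both groups. Among the naïve mice, the ranges of neighbours in this order overlapped, except between Itgb1 and Itgal and between Itgal and Itga4.

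**Figure D4:**
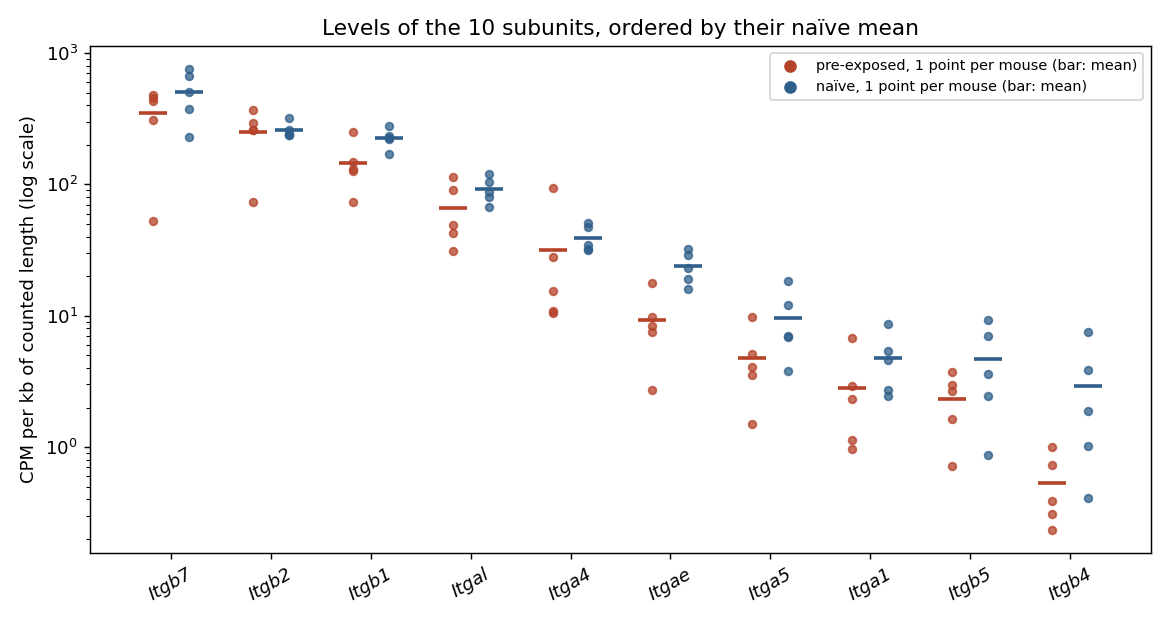
CPM per kilobase of counted length (log axis) of the integrin genes in pre-exposed mice (left of each pair, red) and naïve mice (right, blue), 1 point per mouse with the group mean as a bar. The means run from 507 CPM per kb for Itgb7 to 2.94 for Itgb4 in naïve mice, with the same order in pre-exposed mice.

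Since α4 can pair with β1 or β7, and β7 with αE or α4, the balance between partners was computed within each library. It was a difference of log2 CPM, which does not depend on library scaling but can carry the trend with gene length. Counted lengths are 2674 bases for Itgb7 and 4194 for Itgb1, 4572 for Itgae and 9832 for Itga4, and 5225 for Itgal and 2862 for Itgb2. The part of the length trend in the balances was not tested. For Itgb7 minus Itgb1 the pre-exposed mice gave 0.29, 1.91, 0.66, 1.17 and -2.13, against 0.05, -0.62, 0.91, 0.60 and 1.09 in the naïve mice. 2 pre-exposed mice lay above and 1 below all naïve mice, and the means differed by -0.03 (p = 0.984, two-sided exact permutation test). For Itgae minus Itga4 the values were -1.77, -1.59, -1.98, -1.25 and -6.20 in pre-exposed mice, against -1.97, -2.77, -2.14, -1.09 and -1.27 in naïve mice. 4 pre-exposed mice lay within the naïve range and pre-exposed mouse 5 far below it, and the means differed by -0.71 (exact permutation p = 0.706). For Itgal minus Itgb2, the chains of LFA-1, the values were -0.31, -2.38, -1.73, -1.16 and 0.28 in pre-exposed mice, against -0.58, -0.97, -0.82, -0.31 and -0.56 in naïve mice. Pre-exposed mice 2 to 4 lay below all naïve mice and pre-exposed mouse 5 above them, with a difference in means of -0.41 (exact permutation p = 0.421). Over the 3 balances each adjusted p was 0.984, and the smallest p that the 252 splits allow is 0.00794. The SDs of the pre-exposed mice were 1.53, 2.05 and 1.07 in the order given, against 0.69, 0.68 and 0.25 in naïve mice. Without pre-exposed mouse 5 they were 0.70, 0.31 and 0.88, so that for the first balance the spread was then close to that of the naïve mice and for the second it was smaller.

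**Figure D5:**
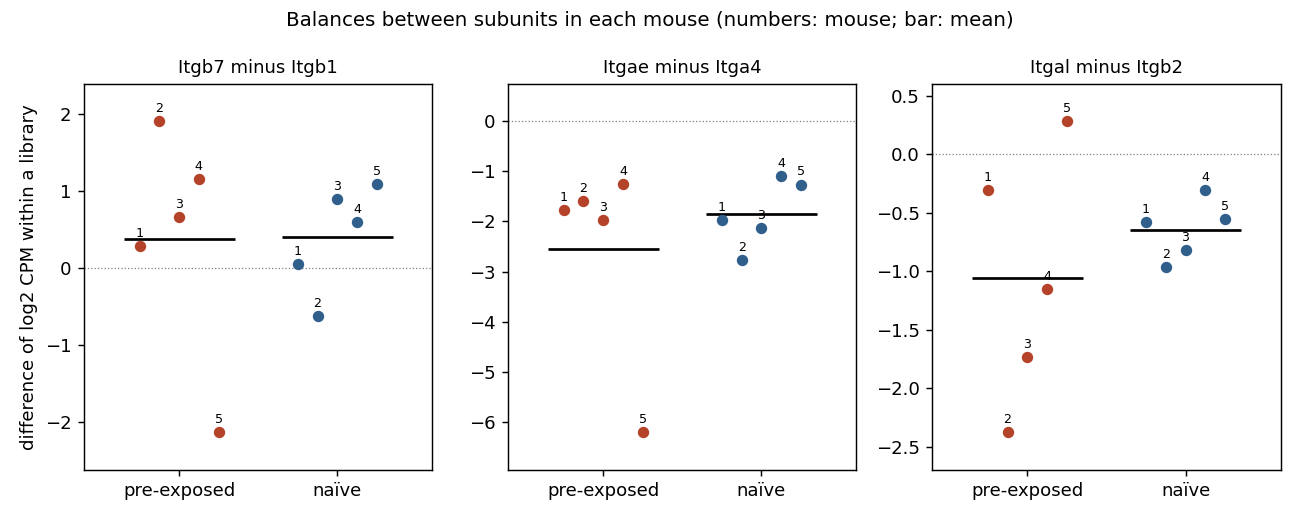
Difference of log2 CPM between the chains named above each panel (y axis, log2 units) in pre-exposed mice (left, red) and naïve mice (right, blue), with mouse numbers and the group mean as a bar. Pre-exposed mouse 5 lies at -2.13, -6.20 and 0.28, outside the naïve values each time.

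Which genes varied most like the integrins was read from Pearson's r of log2 CPM over the 10 libraries, as a description in which group, depth and length trend are shared by all points. Itgae varied most like Acpp, which codes for prostatic acid phosphatase (r = 0.971), Zfp346 (0.971) and Tmem64 (0.965). Itgb4 varied most like Cd163l1 (r = 0.975), a scavenger receptor of IL-17-producing γδ T cells, followed by Epha1 (0.965) and Sema4f (0.957). Itga5 varied most like Brap (r = 0.985), Mmp25 (0.978) and Fbxo31 (0.977), and Itgb1 most like Yy2 (0.984), Esyt2 (0.979) and Lin54 (0.972). Among the 10 integrins, Itgb4 and Itga5 were nearest to each other (r = 0.919) and Itgb1 was nearest to Itgal (0.841). Itgae was about as near to Itgb7 (0.832) as to Itga5 (0.830) and Itgb4 (0.812). Itga4 went against Itgb2 (r = -0.73) and Itgb7 (-0.53). Of the 10 libraries, pre-exposed mouse 5 had the highest Itga4 and the lowest Itgb2 and Itgb7. These negative values thus lean on that library, and r without it was not computed.

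Cd163l1 belongs to a list of 15 genes of the IL-17-producing γδ subset, of which 4 were called lower and none higher, with a median log2 fold change of -0.88, against 1.18% of all genes called lower. The 4 were Il23r, the IL-23 receptor (-1.33, edgeR adjusted p = 0.0115), Cd163l1 (-2.41, 0.0238), Il1r1, an IL-1 receptor chain (-1.83, 0.0243), and Aqp3, an aquaglyceroporin (-1.36, 0.0295). The cytokines of this subset, named after their values were seen, did not pass the test. Il17f was at 15.5 ± 5.66 CPM in pre-exposed mice and 8.69 ± 4.68 CPM in naïve mice (SD, n = 5 each), with a log2 fold change of 0.84 (SE 0.41, edgeR adjusted p = 0.226), and that of Il17a was 0.27 (SE 0.76, edgeR adjusted p = 0.859). The 15 genes summed to 2016 to 3498 CPM in pre-exposed mice and 3605 to 7466 CPM in naïve mice. The highest sums, 7466 and 6842 CPM, were in naïve mice 4 and 5, which also had the highest Itgae, Itgb7, Itgb4, Itga5 and Itgb5. Cd163l1 was at 223, 189, 149.8, 438 and 122 CPM in pre-exposed mice, against 534, 298, 633, 1941 and 2557 CPM in naïve mice, and here too naïve mouse 2 was the lowest and naïve mouse 5 the highest of the naïve mice. A list of 13 genes of the IFNγ-producing subset had 6 called higher and none lower (median 0.51), against 5.12% of all genes called higher, and its sum was 5161 to 10245 CPM in pre-exposed mice and 2734 to 4363 CPM in naïve mice. In this list Nkg7, a granule protein, had a log2 fold change of 1.28 (edgeR adjusted p = 0.0108), Ifng of 1.44 (0.0133), and the chemokines Ccl5 of 1.51 (0.0174) and Xcl1 of 1.85 (0.0276). The study itself names Il23r, Cd163l1 and Il1r1 as down-regulated and Nkg7, Ifng, Ccl5 and Xcl1 as up-regulated in these same libraries. Both lists were drawn up with this known, so their shares are descriptions and not independent of these libraries. With each library left out in turn, Il23r and Nkg7 were called each time, Ifng in 8 and Ccl5 in 7 of 10 fits, Cd163l1, Il1r1 and Aqp3 in 5 and Xcl1 in 4. Without pre-exposed mouse 5, 7 of the IL-17 list were called lower and 7 of the IFNγ list higher, in a fit that called 5.61% of all genes lower and 9.17% higher. Under the length offset 3 of the IL-17 list were called lower and none of the IFNγ list higher, against 0.308% of all genes lower and 1.38% higher. The part of the subset makeup in the integrin levels was not tested.

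None of 10 other integrin subunits that passed the filter, of 17 in the table, was called by edgeR, and 4 had an unadjusted p under 0.05. Itgb3, the chain of the vitronectin and platelet fibrinogen receptors, was at 108, 39.6, 66.1, 138 and 83.8 CPM in pre-exposed mice, against 129, 147, 123, 153 and 169 CPM in naïve mice. Pre-exposed mouse 4 alone reached the naïve range. The log2 fold change of Itgb3 was -0.73 (SE 0.29, edgeR adjusted p = 0.138) and that of Itga3, a laminin receptor chain, -1.24 (SE 0.53, edgeR adjusted p = 0.164). Itgam, the αM chain of myeloid cells, was at 36.4, 13.0, 8.83, 7.70 and 0 CPM in pre-exposed mice, against 0.514, 0.310, 6.12, 3.19 and 3.61 CPM in naïve mice. 4 of the 5 pre-exposed mice lay above every naïve mouse, while pre-exposed mouse 5 had no count, which allows up to 3 counts. The log2 fold change of Itgam was 2.34 (SE 0.82, edgeR adjusted p = 0.0978) and that of Itga2b, the αIIb chain of platelets, 1.74 (SE 0.77, edgeR adjusted p = 0.181). The platelet markers, Itga2b among them, summed to 1.64 to 12.6 CPM in pre-exposed mice and 0.147 to 2.95 CPM in naïve mice. In the fit of pre-exposed mice 2 to 4, Itgam (1.93, edgeR adjusted p = 0.0181) was called higher, and Itgav (-1.11, 0.0117) and Itgb3 (-0.91, 0.0311) lower. That fit called 14.9% of all genes higher and 14.9% lower. The part of myeloid cells and platelets in these values was not tested.

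Of 17 tested genes that regulate integrin activation, inhibitors such as Sharpin and Itgb1bp1 included, 1 was called higher and none lower, with a median log2 fold change of -0.18. This is a share near the 5.12% of all genes called higher. The called gene was Fyb, the adaptor ADAP of the SLP-76 complex, at 166, 284, 200.5, 248 and 314 CPM in pre-exposed mice, against 146, 159.7, 150.1, 114 and 111 CPM in naïve mice. The groups did not overlap, with a log2 fold change of 0.83 (SE 0.23, edgeR adjusted p = 0.0464). This call held without pre-exposed mouse 1 or 5 and was lost without any of the other 8 libraries (edgeR adjusted p up to 0.139). Its partner Skap1 had a log2 fold change of 0.63 (edgeR adjusted p = 0.169), the kinase Stk4, or Mst1, of -0.56 (0.131) and Itgb1bp1, also called ICAP-1, which binds the β1 tail, of 0.57 (0.166). Without pre-exposed mouse 5, 2 of the 17 were called higher and 1 lower, in a fit that called 9.17% of all genes higher and 5.61% lower. Under the length offset none of the 17 was called in either direction.

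Of 19 tested genes of the adhesion complex that forms behind bound integrins, edgeR called none (3 at an unadjusted p under 0.05), with a median log2 fold change of -0.22. The adaptor Crk had -0.76 (SE 0.25, edgeR adjusted p = 0.0771), Arhgef6, an exchange factor for Rac, -0.69 (0.126), Lims1, or PINCH1, 0.58 (0.114) and Tns1, a tensin, 0.96 (0.266). Of 11 tested integrin ligands, none was called (2 at an unadjusted p under 0.05, edgeR). Spp1, osteopontin, a ligand of αv and α4 integrins, was at 21.7, 67.4, 82.0, 44.9 and 89.9 CPM in pre-exposed mice, against 1.39, 5.79, 55.1, 10.6 and 4.05 CPM in naïve mice. Only naïve mouse 3 overlapped with the pre-exposed mice, and the log2 fold change was 1.96 (SE 0.71, edgeR adjusted p = 0.107). L1cam had a log2 fold change of -1.25 (edgeR adjusted p = 0.144), Adam8 of -0.997 (0.214) and Fn1, fibronectin, of 1.54 (0.215).

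Of 13 tested tetraspanins and other membrane partners of integrins, 1 was called higher, against 5.12% of all genes, and none lower. Their median log2 fold change was 0.49. Cd81, a tetraspanin, was at 58.9, 95.0, 44.1, 51.0 and 9.63 CPM in pre-exposed mice. Its levels in naïve mice were 8.51, 10.96, 18.4, 19.3 and 19.5 CPM. Pre-exposed mice 1 to 4 lay above every naïve mouse and pre-exposed mouse 5 lay among them, and the log2 fold change was 1.78 (SE 0.44, edgeR adjusted p = 0.0332). The call on Cd81 held without pre-exposed mouse 1, 4 or 5 and was lost without any of the other 7 libraries (edgeR adjusted p up to 0.114). Slc3a2, the CD98 heavy chain that binds β1 tails, had a log2 fold change of 0.75 (edgeR adjusted p = 0.0567), Cd63 of 1.17 (0.0517) and Plaur, the urokinase receptor, of 2.51 (0.0556). Without pre-exposed mouse 5, 5 of the 13 were called higher, against 9.17% of all genes.

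TGFβ signalling is known to induce Itgae in T cells. A list drawn up around the regulation of Itgae and Itgb7, with the egress receptor S1pr1 in it, had 19 tested genes. Of these, 1 was called lower, against 1.18% of all genes, and none higher, with a median log2 fold change of -0.18. The TGFβ receptor, SMAD and RUNX genes of the list were not called. The gene that fell was S1pr1, the receptor by which T cells leave lymphoid organs, at 291, 239, 237, 219 and 118 CPM in pre-exposed mice, against 461, 310.0, 464, 585 and 496 CPM in naïve mice. The groups did not overlap, and the log2 fold change was -1.07 (SE 0.26, edgeR adjusted p = 0.0307). Like Fyb, S1pr1 was called without pre-exposed mouse 1 or 5 and not without any of the other 8 libraries (edgeR adjusted p up to 0.0909). Of the TGFβ pathway, the receptor chain Tgfbr2 had a log2 fold change of -0.79 (SE 0.29, edgeR adjusted p = 0.109), Smad3 of -0.85 (SE 0.33, 0.130) and Smad4 of -0.59 (SE 0.22, 0.108). Tgfbr2 was at 206, 65.1, 79.4, 109 and 111 CPM in pre-exposed mice, against 236, 178, 177, 225 and 171 CPM in naïve mice. Pre-exposed mice 2 to 5 lay below every naïve mouse and pre-exposed mouse 1 among them, as for Itgae and Itgb1. In the fit of pre-exposed mice 2 to 4, 6 of the 19 were called lower and 1 higher, against 14.9% of all genes in either of these directions. Under the length offset 1 of the 19 was called lower, against 0.308% of all genes.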

How the data were processed

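EM γδ T cells of 5 pre-exposed and 5 naïve mice were profiled by RNA-sequencing. The authors aligned read pairs to mm10 with Subread, used featureCounts with the NCBI annotation built into Subread, and deposited raw counts per Entrez gene together with each gene's length. No source used here gives the versions of Subread and featureCounts or the strand setting, so overlapping genes are uncertain. The study's methods name a SMART ultra-low RNA kit, whereas the labels name Illumina TruSeq. By the labels, every library is a different mouse, and p-values measure the spread between these libraries. Depth limits precision, since a count of 0 allows up to 3 counts, which covers counting error only.

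Symbols were matched to Entrez IDs with RefSeq (GRCm38.p6), and 25275 of 27179 genes had one. As in the study's methods, filterByExpr (13534 genes kept) was followed by removal of genes without a symbol (767) and of immunoglobulin genes (112), which left 12655. Library sizes were TMM-scaled. Genes were tested by quasi-likelihood in edgeR 4.0.16 (robust, legacy set to FALSE) in R 4.3.3 without covariates, with Benjamini-Hochberg adjustment over all tested genes at 0.05. The SE of a log2 fold change was its size divided by the square root of F. voom with TREAT at a fold change of 1.5 (limma 3.58.1) was run after the study's methods, and DESeq2 1.42.0 was an alternative. Log2 CPM for balances and correlations used a prior count of 2. The length offset came from a loess fit per library (span 0.3) of deviations from the gene means on log2 length. The steps were tested on simulated counts.

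Alternatives were other scalings, no filter, other tests, a replicate block, the label style as a covariate, subsets of the pre-exposed mice, and each library left out. The text names all 10 integrins, the up to 4 tested genes of smallest p in each list of integrin partners and of γδ subsets, and the 3 genes most like each of the 4 integrins of smallest p. The integrins, gene lists and tests were chosen with earlier results of these data known.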

Additional observations from a re-analysis of the deposited data

Results flagged for a closer look

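A mouse far from the rest of its group was looked for in each gene and group, 20 groups of 5 mice in all, as a gap to the nearest mouse above 0.71 of the group's range. About 1 in 20 such groups would be found by chance, and 2 were found. Itga4 was at 920 CPM in pre-exposed mouse 5, the highest of the pre-exposed mice, with a gap of 0.787 of the range, and the next highest pre-exposed mouse had 277 CPM. Itgb2 was at 920.3 CPM in naïve mouse 5, the highest of the naïve mice, with a gap of 0.749 of the range, and the next highest naïve mouse had 737 CPM.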

How the results depend on the processing

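Over all tested genes, edgeR called 797, against 1350 with DESeq2, 358 with the older dispersion method, 40 with the label style as a covariate, 214 with the length offset, 23 for pre-exposed mice 1 and 5, 3777 for pre-exposed mice 2 to 4, and 53 to 1870 when 1 library was left out. In the labels only pre-exposed mice 2 to 4 lack an index pair. With the label style as a covariate, the group difference thus rests on pre-exposed mice 1 and 5 against the naïve mice. Of the 10 integrins, 2 were called by edgeR, and 2 by DESeq2. 1 was called with relative log expression scaling (Itgae), with upper-quartile scaling (Itgb4) and without the filter (Itgae). Under edgeR 0 were called with the older dispersion method and with the label style as a covariate (3 each at an unadjusted p under 0.05), 0 with the length offset (2) and 0 for pre-exposed mice 1 and 5 (1), while 5 were called for mice 2 to 4. Leaving out 1 library gave 0 to 3, with 3 without pre-exposed mouse 1 (Itgae, Itgb1, Itgb4) or 5 (Itga4, Itgae, Itgb4), 1 without naïve mouse 2 (Itgb4) and 0 without each of the other 7 (2 to 4 at an unadjusted p under 0.05). Of the other subunits, 3 were called for mice 2 to 4 and 0 to 2 when 1 library was left out. TREAT called 2 of all genes, against 287 with sample quality weights, 6 at a fold change of 1.2, 1 for mice 1 and 5, 591 for mice 2 to 4, and 0 to 137 when 1 library was left out, and of the 10 integrins 2 for mice 2 to 4 (Itga4 and Itgae).

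Itga4 had the opposite sign with the label style as a covariate (0.63) and for mice 1 and 5 (0.69). Both values rest on mice 1 and 5 and are not separate evidence. Itgb2 had the opposite sign for mice 2 to 4 (0.18), with a leave-one-out range of -0.23 to 0.15. The Itgb7 to Itgb1 balance turned for mice 2 to 4 (0.84; leave-one-out -0.41 to 0.60), Itgae to Itga4 likewise (0.24; -1.04 to 0.20), and Itgal to Itgb2 for mice 1 and 5 (0.63). The cause was not tested. The log2 fold changes of Itgae (-1.73 to -1.11) and Itgb4 (-2.74 to -1.67) stayed negative under 20 alternatives, and they passed the test in 6 and 5 of these. A negative sign under all 20 was not particular to them, since Itgb7, Itga5, Itgb5, Itgb1, Itgal and Itga1 kept it as well. Upper-quartile scaling moved the median of all genes to 0.05.

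With the replicate block, edgeR called 55 of all genes and 0 of the 10 integrins (3 at an unadjusted p under 0.05), and TREAT called 13 of all genes. Deviations of mice with the same number correlated at -0.26 to 0.05, and 0 of 5 pre-exposed mice correlated best with their own number, so the numbers do not pair the mice. Itgb4, at 8 to 89 counts per pre-exposed library, is the integrin most limited by depth.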

Other observations

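Genes used as markers of other cells were read beside the integrins. Whether their transcripts came from such cells carried through the CD3+ γδTCR+ gate or from γδ T cells was not tested. Gzma and Eomes of the NK list also stand in the list of the IFNγ-producing γδ subset, so the NK list does not separate these cells. Over all tested genes, edgeR called 5.12% higher. Of 6 tested erythroid genes 4 were called higher in pre-exposed mice and none lower, and they summed to 333 to 2040 CPM in pre-exposed mice and 80.1 to 462 CPM in naïve mice. Of 8 NK cell genes 3 were called higher, among them Klrg1 (log2 fold change 2.78, edgeR adjusted p = 0.0184), and they summed to 682 to 2021 CPM in pre-exposed mice and 499 to 1241 CPM in naïve mice. Of 8 αβ T cell genes 1 was called higher, Trac (1.17, edgeR adjusted p = 0.0221), with sums of 1800 to 3479 CPM in pre-exposed mice and 1778 to 2147 CPM in naïve mice. Cd4 was at 108, 82.8, 79.2, 113 and 6.90 CPM in pre-exposed mice, against 8.51, 14.6, 38.7, 23.7 and 22.1 CPM in naïve mice, so that pre-exposed mouse 5 lay below and the other pre-exposed mice above every naïve mouse. Of 5 tested B cell genes 3 were called higher, with sums of 80.5 to 202 CPM in pre-exposed mice and 103 to 166 CPM in naïve mice. Of 10 γδ T cell markers 1 was called higher, Cd3d (1.02, edgeR adjusted p = 0.0459), and Trgc1, a constant region of the γ chain, had a log2 fold change of -0.59 (edgeR adjusted p = 0.211). Csf3r, a neutrophil receptor, was at 8.66, 6.47, 5.41, 1.94 and 0 CPM in pre-exposed mice, against 0, 0, 1.48, 1.30 and 0.289 CPM in naïve mice, with a log2 fold change of 3.02 (edgeR adjusted p = 0.0443), and a count of 0 allows up to 3 counts.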
